A study of Mus musculus with 18 samples.

Results

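Expression of 31 genes of cholesterol and fatty acid synthesis was examined in colon crypt epithelial cells of WT and Ern2-/- mice with and without gut microbes. The genes were taken by symbol from textbook pathways, and 30 of them had a row among the 24047 gene symbols of the count table (Hmgcs1 was not analysed here). They comprised 6 enzymes of the mevalonate steps (Acat2, Mvk, Pmvk, Mvd, Idi1 and Fdps), 11 that turn farnesyl diphosphate into squalene and then cholesterol (Fdft1, Sqle, Lss, Cyp51, Tm7sf2, Lbr, Nsdhl, Hsd17b7, Ebp, Sc5d and Dhcr7), 5 genes of SREBP control and sterol transport (Srebf1, Srebf2, Insig1, Insig2 and Stard4) and 8 of fatty acid synthesis (Acly, Acss2, Me1, Acaca, Fasn, Elovl6, Scd1 and Scd2).

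The RNA-Seq series held 18 libraries from mice labelled C57BL/6, in 6 groups of 3. GF-WT and GF-Ern2-/- mice were germ free. COLONIZED-WT and COLONIZED-Ern2-/- mice had been germ free and received, 14 days before sampling, a cecal homogenate of WT donors, whichever genotype the recipient had. CONV-WT and CONV-Ern2-/- mice were raised conventionally under specific pathogen-free conditions. Ern2 encodes the endoplasmic reticulum (ER) stress sensor ERN2 (IRE1β) of mucosal epithelium. The age of the mice is not given in the sources used here. The labels number the libraries of a group without saying that each came from its own mouse, so p-values measure the spread between these libraries.

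Cells make cholesterol from acetyl-CoA through mevalonate and squalene, and make fatty acids from the same acetyl-CoA pool through malonyl-CoA. Both arms are driven by SREBP transcription factors, which leave the ER with their escort SCAP when membrane sterol is low and are cut free by proteases in the Golgi. INSIG proteins hold SCAP in the ER when sterol is plentiful, and Insig1 is itself an SREBP target. Colonic epithelium is also exposed to short-chain fatty acids of the microbiota, among them acetate, which cells can turn into acetyl-CoA.

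Library totals ran from 5865619 to 23154481 counts, and the 3 smallest were CONV-Ern2-/- replicates 2 and 3 (7084267 and 5865619) and CONV-WT replicate 3 (8198204). The targeted gene went against some labels. Ern2 read 1909 to 3100 normalized counts (counts divided by the size factor of each library) in the 9 libraries labelled WT, and 386 to 3336 in the 9 labelled Ern2-/-. The highest of these were GF-Ern2-/- replicates 1 and 3 (2877 and 3336) and COLONIZED-Ern2-/- replicate 1 (2567), which lay within the WT range or above it. COLONIZED-Ern2-/- replicate 3 (1885) was just below the lowest WT library and is not among the libraries called here of WT-level Ern2, and the part of the gene that the allele lacks is not given in the sources used here. Groups are therefore groups of libraries labelled Ern2-/- throughout, and the members called without the 3 libraries of WT-level Ern2 are given beside the main calls. Without them 1 library is left in GF-Ern2-/-, replicate 2, whose spread is then taken from the group it is compared with. All 11 epithelial markers were detected in every library. CONV-WT replicate 3 stood apart from the other CONV-WT libraries. The chi-square statistic of its counts over genes, per degree of freedom (about 1 where libraries differ by counting noise alone), was 187 and 143 against replicates 1 and 2, which gave 23.9 with each other. GF-Ern2-/- replicate 2 gave 188 and 129 against replicates 1 and 3, and these 44.8. In CONV-WT replicate 3 the epithelial genes Epcam, Cdh1 and Cldn7 read 8948, 6654 and 4134 normalized counts, below the lowest of the other 17 libraries (19943, 14649 and 9116). Only these 3 of the 11 epithelial markers were lowest in this library. The library's 11-marker sum was 179690, between 166649 (replicate 2) and 189011 (replicate 1). Its 11 genes from squalene to cholesterol lay at a median of -1.27 on the log2 scale from the 18-library mean, against 0.07 and -0.05 in replicates 1 and 2, whereas its mevalonate genes did not (0.41 against 0.31 and 0.29). Its summed goblet markers were 92824 normalized counts, against 623576 and 549440.0 in replicates 1 and 2.

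**Figure D1:**
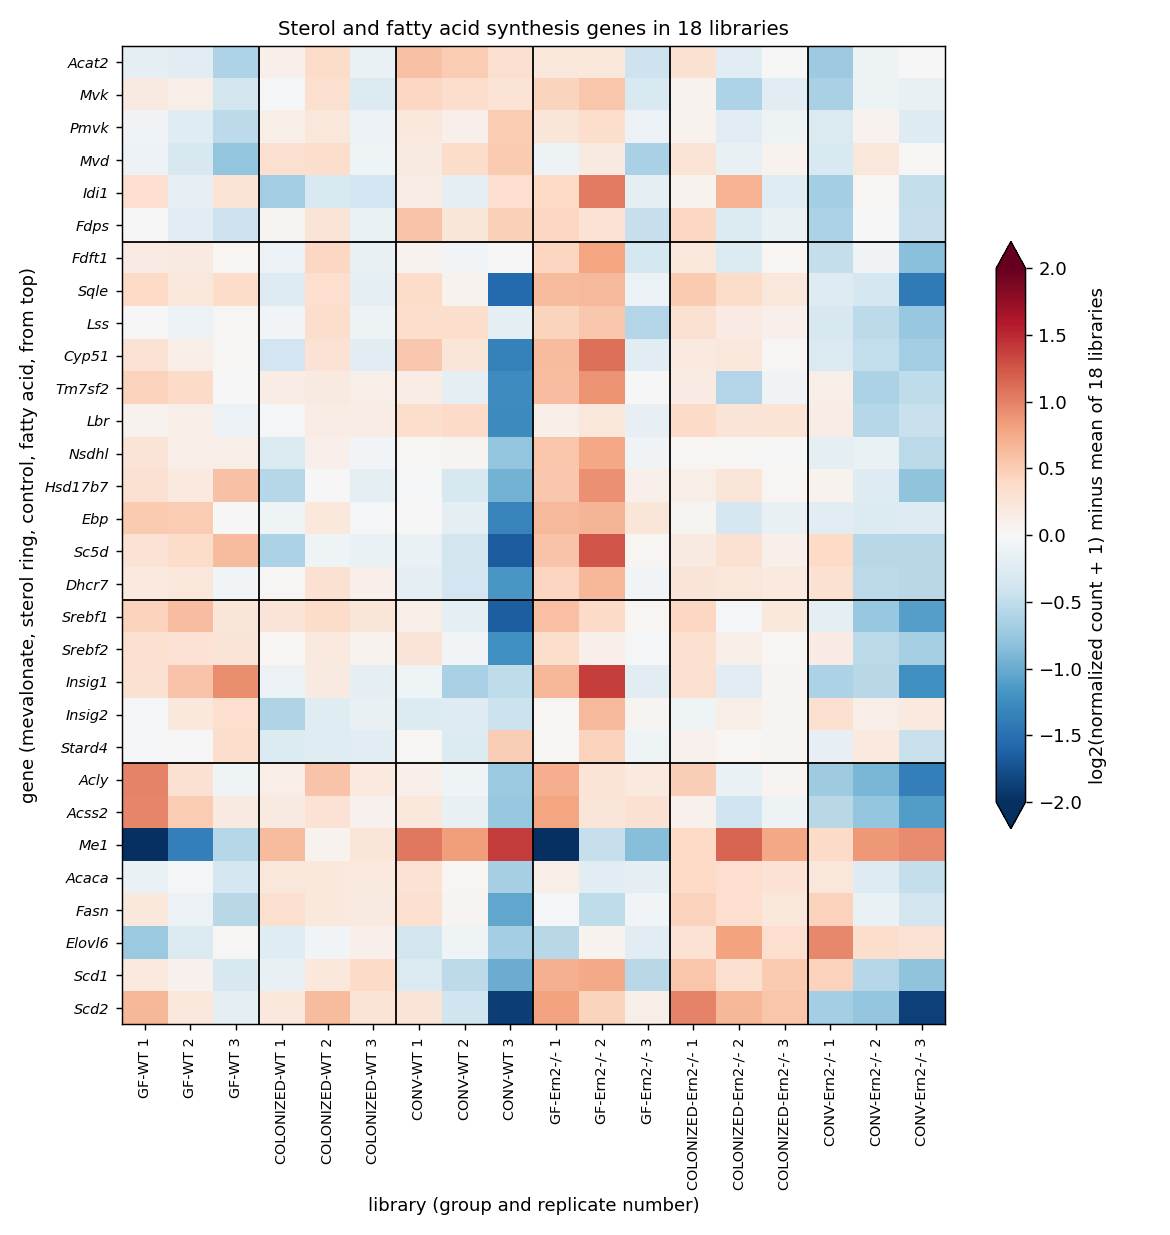
Each row is a gene and each column a library, and the colour gives log2(normalized count + 1) minus the gene's mean over 18 libraries (red above, blue below, limited to 2 in each direction). CONV-WT replicate 3 is mostly blue from Sqle to Dhcr7 while its mevalonate genes are not, the CONV-Ern2-/- columns are mostly blue in Acly, Acss2 and Scd2, and Me1 is bluest in germ-free libraries.

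Few of these genes passed the test between libraries with and without microbes, and they did so in both directions. A gene was called at a DESeq2 adjusted p under 0.01 over all genes tested. In CONV-WT vs GF-WT, Acat2 and Me1 were called higher and Insig1 lower, which is 10.0% of the 30 genes against 11.0% of all genes tested (5.68% higher and 5.28% lower). In COLONIZED-WT vs GF-WT, Sc5d and Insig1 were called lower, or 6.67% of the members against 18.3% of all genes (9.35% and 8.97%). In CONV-Ern2-/- vs GF-Ern2-/-, Me1 was higher and Ebp, Insig1, Acly, Acss2 and Scd2 were lower. These are 20.0% of the members, against 4.34% of all genes, with 16.7% of the members lower against 2.77% and 3.33% higher against 1.57%. Me1 was the only member called in COLONIZED-Ern2-/- vs GF-Ern2-/- (3.33% against 7.17%, of which 3.6% higher and 3.57% lower).

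Between the CONV and COLONIZED states, members were called in the Ern2-/- libraries. Sqle, Lss, Cyp51, Insig1, Acly and Scd2 were called lower in CONV-Ern2-/- than in COLONIZED-Ern2-/-, which is 20.0% of the members against 3.73% of all genes called lower, 4.86% called higher and 8.59% called in all. None was called in CONV-WT vs COLONIZED-WT (0.119% of all genes), where 4 members (13.3%, against 9.17% of all genes) reached an unadjusted p under 0.05 with DESeq2 and 4 with edgeR. In all, 11 members were called in at least 1 comparison, in 18 pairs of gene and comparison, and 19 members in none. The 6 calls in Ern2-/- libraries became 15 of the 30, all lower, without CONV-Ern2-/- replicate 1, where the share of all genes called also rose, to 18.4% (8.42% lower). With the 3 libraries of WT-level Ern2 left out, 2 were called here, Acly and Scd2 (6.67% of members against 3.29% of all genes). Then 2 were called in CONV-Ern2-/- vs GF-Ern2-/-, Cyp51 and Insig1 (6.67% against 3.18%), and in COLONIZED-Ern2-/- vs GF-Ern2-/- 6 (20.0% against 10.5%). Named after their values were seen, the 6 were Me1, higher, and Cyp51 (log2 fold change and adjusted p of -0.998, 0.00187), Ebp (-0.93, 0.00615), Sc5d (-1.07, 0.00169), Insig1 (-1.49, 3.88e-06) and Tm7sf2 (-1.23, 0.00459), lower. Both of the latter comparisons then rest on 1 GF-Ern2-/- library, replicate 2, which had the highest value of its group in Cyp51, Ebp, Sc5d, Insig1 and Tm7sf2. The edgeR quasi-likelihood test, run on the same counts, called none of the 18. It called 0.175% of all genes in CONV-WT vs GF-WT, 4.94% in COLONIZED-WT vs GF-WT, 0.0325% in CONV-Ern2-/- vs GF-Ern2-/-, 0.216% in COLONIZED-Ern2-/- vs GF-Ern2-/-, 0.282% in CONV-Ern2-/- vs COLONIZED-Ern2-/-, 0.00786% in COLONIZED-Ern2-/- vs COLONIZED-WT and 0.0% in the other comparisons and interactions. Its adjusted p for these pairs ran from 0.0209 (Scd2, CONV-Ern2-/- vs COLONIZED-Ern2-/-) to 0.0883 (Insig1, CONV-Ern2-/- vs GF-Ern2-/-). In these bulk samples, less RNA per cell and fewer cells that express a gene cannot be told apart.

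Members whose libraries did not overlap between groups were counted in each direction. In CONV-WT vs GF-WT, 6 were wholly higher (20.0% against 18.1% of all genes) and 9 wholly lower (30.0% against 18.1%). In COLONIZED-WT vs GF-WT they numbered 4 higher (13.3% against 23.0%) and 8 lower (26.7% against 23.5%). In CONV-Ern2-/- vs GF-Ern2-/- there were 2 higher (6.67% against 11.6%) and 10 lower (33.3% against 13.0%), and in COLONIZED-Ern2-/- vs GF-Ern2-/- 5 higher (16.7% against 16.4%) and 2 lower (6.67% against 16.7%). For CONV-Ern2-/- vs COLONIZED-Ern2-/- there were 11 lower (36.7% against 18.2%) and 0 higher (against 17.7%). In CONV-WT vs COLONIZED-WT 2 were higher (6.67% against 8.52%) and 4 lower (13.3% against 7.88%).

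**Figure D2:**
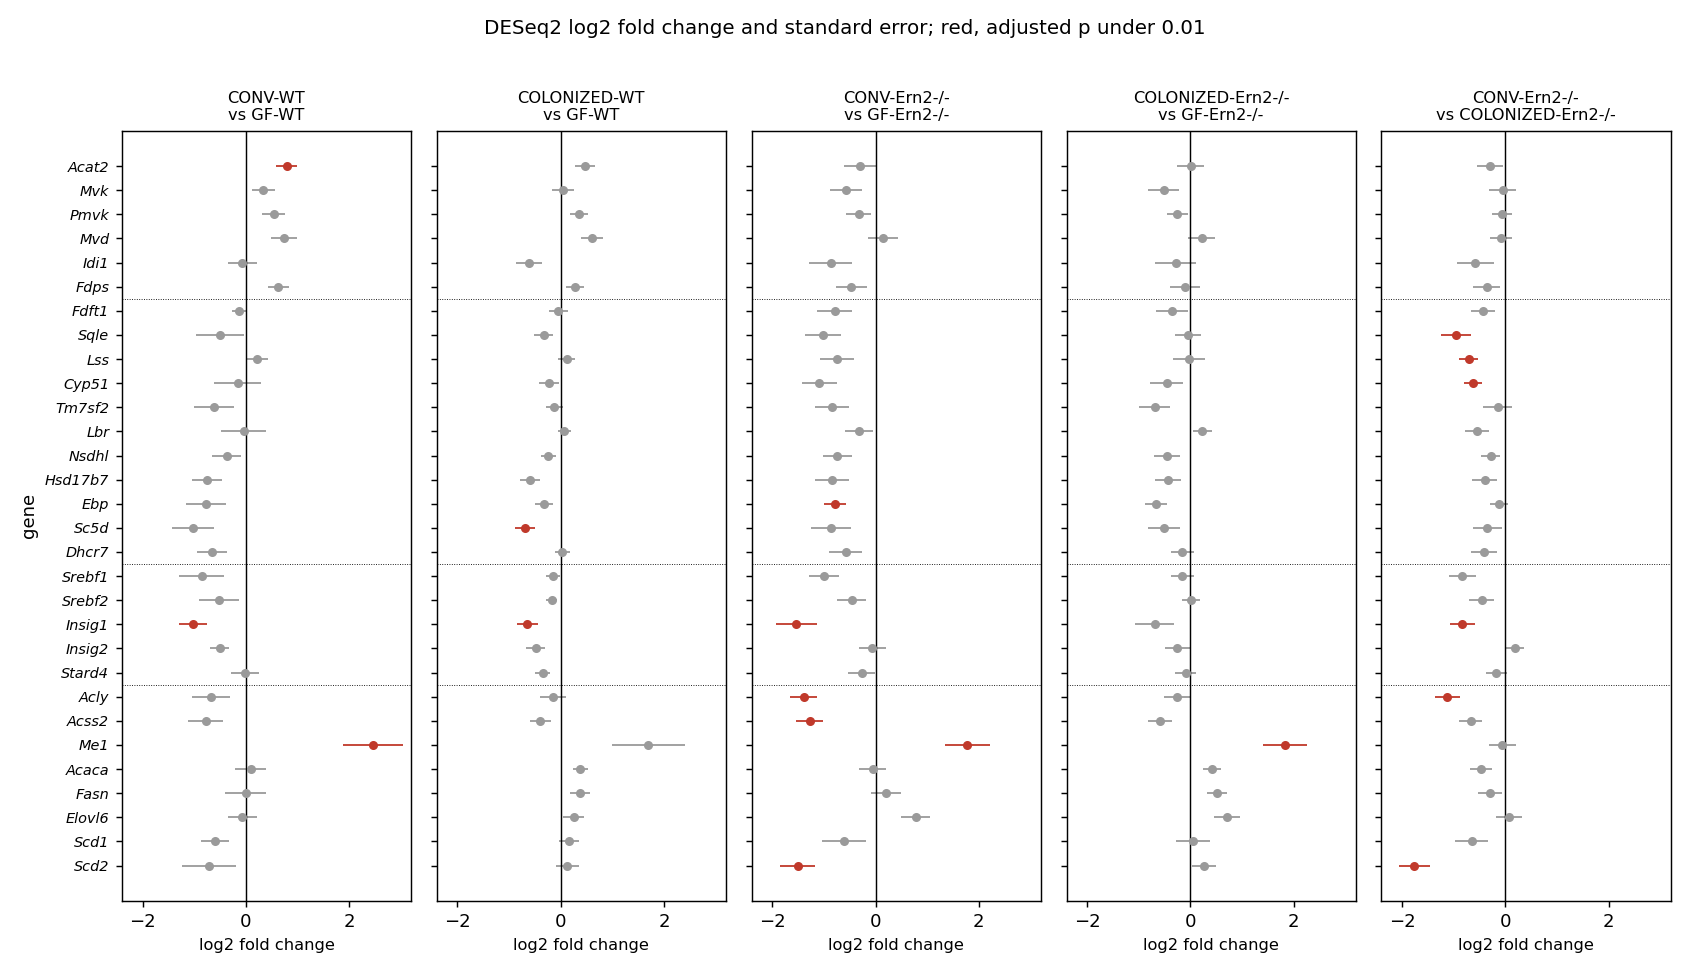
Points give the DESeq2 log2 fold change of each of the 30 genes in 5 comparisons and bars its standard error. Red marks an adjusted p under 0.01: 3, 2, 6, 1 and 6 genes from left to right. Mevalonate genes lie mostly above 0 in the WT panels, and 26 and 28 of the 30 genes lie below 0 in the 2 panels of CONV-Ern2-/-.

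Of the mevalonate genes, Acat2 was the one called. Acat2 (chr17:12943042-12960725, GRCm38) encodes the cytosolic thiolase that joins acetyl-CoA units to start the pathway. Acat2 read 807, 767 and 672 normalized counts in CONV-WT (replicates 1, 2 and 3), 476, 463 and 353 in GF-WT and 580.4, 697 and 491 in COLONIZED-WT. With the label Ern2-/- the values were 635, 625 and 403 in GF-Ern2-/-, 667, 467 and 541 in COLONIZED-Ern2-/- and 327, 502 and 535 in CONV-Ern2-/-. All 3 CONV-WT libraries lay above all 3 GF-WT libraries, while the Ern2-/- groups overlapped. Acat2 rose in CONV-WT over GF-WT (log2 fold change 0.79 ± 0.20, adjusted p = 0.00154), a call that held without CONV-WT replicate 3 and was lost without CONV-WT replicate 1 (0.0503), CONV-WT replicate 2 (0.0654), GF-WT replicate 1 (0.0185), GF-WT replicate 2 (0.0285) or GF-WT replicate 3 (0.0275). When sex, read from Xist and Y-linked genes, was a covariate, its adjusted p was 0.0516, and none of the 3 GF-WT libraries had the male pattern against 1 in CONV-WT.

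Of the other 5 mevalonate genes, 4 lay higher in CONV-WT without passing the test. The 5 were Mvk (mevalonate kinase), Pmvk (phosphomevalonate kinase), Mvd (mevalonate diphosphate decarboxylase), Idi1 (isopentenyl diphosphate isomerase) and Fdps, which makes farnesyl diphosphate. In CONV-WT vs GF-WT the log2 fold change was 0.34 for Mvk, 0.54 for Pmvk, 0.74 for Mvd, 0.63 for Fdps and -0.07 for Idi1, with adjusted p of 0.0145 (Fdps) and 0.0190 (Mvd) for the lowest. Their median with Acat2 was 0.59, beside -0.000991 over all genes tested. All but Idi1 had CONV-WT libraries wholly above the GF-WT libraries. The same median was 0.32 in COLONIZED-WT, -0.40 in CONV-Ern2-/- and -0.18 in COLONIZED-Ern2-/-, each against its germ-free group. The sign in COLONIZED-Ern2-/- rested on 1 library: the median became 0.05 once GF-Ern2-/- replicate 2 was omitted. Omitting replicate 3 of that germ-free group instead gave -0.36. The other medians against germ free kept their sign whichever single library was omitted. Over the 18 libraries these genes ranged from 344 to 793 (Mvk), 387 to 793 (Pmvk), 516 to 1295 (Mvd), 928 to 2130.3 (Fdps) and 66.3 to 224 (Idi1) normalized counts.

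Of the 11 genes from squalene on, 6 had their lowest group mean in CONV-Ern2-/- and 5 in CONV-WT, where replicate 3 read low. Sqle (chr15:59315092-59331193) encodes squalene epoxidase, a rate-limiting enzyme of the sterol branch. It read 2354, 2094 and 2298 normalized counts in GF-WT, against 2309, 1884 and 612 in CONV-WT and 1495, 2259 and 1569 in COLONIZED-WT, and 2764, 2797 and 1647 in GF-Ern2-/-, 2573, 2309.6 and 2091 in COLONIZED-Ern2-/- and 1494, 1399.7 and 673 in CONV-Ern2-/-. The CONV-Ern2-/- libraries lay below every COLONIZED-Ern2-/- library, and CONV-WT replicate 3 was lower still. Sqle was lower in CONV-Ern2-/- than in COLONIZED-Ern2-/- (log2 fold change -0.96 ± 0.29, adjusted p = 0.00952). The call held only without CONV-Ern2-/- replicate 1, and the 5 other exclusions gave adjusted p of 0.0107 to 0.0950.

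Lss and Cyp51 followed the same pattern in the same comparison. Lss (chr10:76531565-76557139), the synthase that closes the sterol ring to give lanosterol, read 839, 768 and 848 normalized counts in GF-WT, against 1060.0, 1061 and 734 in CONV-WT and 806, 1063 and 779 in COLONIZED-WT. In the Ern2-/- groups it read 1136, 1214 and 554 in GF-Ern2-/-, 1031, 937 and 892 in COLONIZED-Ern2-/- and 664, 578 and 494 in CONV-Ern2-/-. Cyp51 (chr5:4080674-4104697), the lanosterol demethylase, read 2759, 2486 and 2291 normalized counts in GF-WT, against 3267, 2659.8 and 886 in CONV-WT and 1724, 2754 and 1931 in COLONIZED-WT, and 3509, 4864 and 1922 in GF-Ern2-/-, 2585, 2654 and 2289 in COLONIZED-Ern2-/- and 1856, 1606 and 1388 in CONV-Ern2-/-. For both genes the CONV-Ern2-/- libraries were below all COLONIZED-Ern2-/- libraries, and GF-Ern2-/- replicate 3 was far below its group mates, as it was for Sqle. Lss fell in CONV-Ern2-/- against COLONIZED-Ern2-/- (log2 fold change -0.71 ± 0.19, adjusted p = 0.00300) and so did Cyp51 (log2 fold change -0.63 ± 0.18, adjusted p = 0.00624). Each call held only without CONV-Ern2-/- replicate 1, and the other exclusions gave adjusted p of 0.0211 to 0.0622 for Lss and 0.0246 to 0.0751 for Cyp51. Without COLONIZED-Ern2-/- replicate 1, whose Ern2 was at the WT level, it was 0.0950 for Sqle, 0.0622 for Lss and 0.0751 for Cyp51. With sex as a covariate the adjusted p was 0.0333, 0.0226 and 0.0261, and all 3 CONV-Ern2-/- libraries and 2 of the COLONIZED-Ern2-/- libraries had the male pattern.

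Ebp and Sc5d, which act on the sterol nucleus near the end of the pathway, were each called lower than germ free in 1 comparison. Ebp (chrX:8185329-8193512) encodes the sterol isomerase and read 2301, 2276 and 1606 normalized counts in GF-WT, against 1600.3, 1405 and 637 in CONV-WT and 1502, 1851 and 1555 in COLONIZED-WT. The libraries labelled Ern2-/- gave 2519, 2568 and 1895 in GF-Ern2-/-, 1668, 1274 and 1452 in COLONIZED-Ern2-/- and 1371, 1329 and 1338 in CONV-Ern2-/-. Every library with microbes and the label Ern2-/- was below every GF-Ern2-/- library. Ebp fell in CONV-Ern2-/- (log2 fold change -0.79 ± 0.21, adjusted p = 0.00542) and was not called in COLONIZED-Ern2-/- (log2 fold change -0.67 ± 0.21, adjusted p = 0.0163). The call was lost without CONV-Ern2-/- replicate 2 (0.0409), CONV-Ern2-/- replicate 3 (0.0467), GF-Ern2-/- replicate 1 (0.0943) or GF-Ern2-/- replicate 2 (0.0111), and had an adjusted p of 0.0566 without the libraries whose Ern2 was at the WT level, which leaves 1 GF-Ern2-/- library that is assumed to vary like the others.

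Sc5d (chr9:42251592-42264300), the sterol desaturase before the last reduction, read 1130.0, 1196 and 1436 normalized counts in GF-WT, against 844, 722 and 292 in CONV-WT and 598, 873 and 845 in COLONIZED-WT. The corresponding Ern2-/- values were 1387, 2214 and 952 in GF-Ern2-/-, 1057, 1147 and 999 in COLONIZED-Ern2-/- and 1229, 631 and 635 in CONV-Ern2-/-. All GF-WT libraries exceeded all WT libraries with microbes, whereas COLONIZED-Ern2-/- and GF-Ern2-/- overlapped. Sc5d was lower in COLONIZED-WT than in GF-WT (log2 fold change -0.69 ± 0.19, adjusted p = 0.00206), and the call was lost without COLONIZED-WT replicate 1 (0.0154), GF-WT replicate 2 (0.0138) or GF-WT replicate 3 (0.0176), or once sex was a covariate (adjusted p = 0.324), GF-WT holding no library of the male pattern against 2 in COLONIZED-WT. The group term of that fit rests on COLONIZED-WT replicate 2, the only library of its group without the male pattern. Sex and colonization are therefore poorly separated there. In CONV-WT the difference did not pass the test (log2 fold change -1.03 ± 0.40, adjusted p = 0.0558), and without CONV-WT replicate 3 the log2 fold change was -0.68 and passed (adjusted p = 0.00176).

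The other 6 genes of this stretch were called in none of the main DESeq2 fits, though Tm7sf2 and Nsdhl were called in alternative fits given elsewhere. The 6 were Fdft1 (squalene synthase, 847 to 2593 normalized counts over 18 libraries), the sterol reductases Tm7sf2 (192 to 866) and Lbr (595 to 1885), Nsdhl (508 to 1501) and Hsd17b7 (210.0 to 767), which take part in demethylation, and Dhcr7 (977 to 3485), the last reductase. The Lbr product is also a receptor for lamin B in the nuclear envelope. The median log2 fold change of all 11 genes was -0.50 in CONV-WT, -0.22 in COLONIZED-WT, -0.79 in CONV-Ern2-/- and -0.43 in COLONIZED-Ern2-/-, each against the germ-free libraries of that label, where all genes tested had medians of -0.000991, -0.0128, -0.00766 and -0.0216. The CONV-WT median was -0.13 without CONV-WT replicate 3 and -0.86 without CONV-WT replicate 1. The COLONIZED-WT median was -0.13 without COLONIZED-WT replicate 1, and the COLONIZED-Ern2-/- median -0.10 without GF-Ern2-/- replicate 2. In CONV-Ern2-/- vs GF-Ern2-/- all 11 had a fold change below 0 and 9 an unadjusted p under 0.05 (against 19.8% of all genes), with 1 called.

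Among the control genes, Insig1 was called lower in 3 of the 4 comparisons with germ-free libraries. Insig1 (chr5:28071412-28078662) read 1404, 1683 and 2167 normalized counts in GF-WT, against 1075, 729.9 and 802 in CONV-WT and 1048, 1293 and 1000.2 in COLONIZED-WT. In the libraries labelled Ern2-/- it read 1808, 2982 and 975 in GF-Ern2-/-, 1423, 972 and 1182 in COLONIZED-Ern2-/- and 731, 775 and 488 in CONV-Ern2-/-. Every WT library with microbes lay below every GF-WT library, while GF-Ern2-/- replicate 3, at 975, lay within the range of COLONIZED-Ern2-/- and above all CONV-Ern2-/- libraries. Insig1 was called lower in CONV-WT (log2 fold change -1.02 ± 0.27, adjusted p = 0.00202), COLONIZED-WT (log2 fold change -0.64 ± 0.20, adjusted p = 0.00631) and CONV-Ern2-/- (log2 fold change -1.53 ± 0.39, adjusted p = 0.00268) against germ-free libraries of the same label. It was also lower in CONV-Ern2-/- than in COLONIZED-Ern2-/- (log2 fold change -0.83 ± 0.24, adjusted p = 0.00726), and the difference between COLONIZED-Ern2-/- and GF-Ern2-/- did not pass (log2 fold change -0.70 ± 0.37, adjusted p = 0.222).

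Fits that left out 1 library gave Insig1 log2 fold changes of -1.20 to -0.84 in CONV-WT, -0.78 to -0.46 in COLONIZED-WT and -1.85 to -1.08 in CONV-Ern2-/- against germ-free libraries, and some of them did not pass the test. In CONV-WT the call was lost without CONV-WT replicate 2 (0.0544), GF-WT replicate 2 (0.0311) or GF-WT replicate 3 (0.0457), and in COLONIZED-WT without COLONIZED-WT replicate 1 (0.0634), COLONIZED-WT replicate 3 (0.0662), GF-WT replicate 2 (0.0309) or GF-WT replicate 3 (0.0354). Sex as a covariate gave an adjusted p of 0.441 in COLONIZED-WT, where the group term again rests on replicate 2, and 0.050 in CONV-Ern2-/- vs COLONIZED-Ern2-/-. In CONV-Ern2-/- vs GF-Ern2-/- it held in 1 of 6 exclusions, without GF-Ern2-/- replicate 3, and had adjusted p of 0.0105 to 0.0770 in the others. Against COLONIZED-Ern2-/- it was lost without COLONIZED-Ern2-/- replicate 1 (0.105), COLONIZED-Ern2-/- replicate 3 (0.0493) or CONV-Ern2-/- replicate 3 (0.0618). The direction was the same in every one of these fits.

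Insig2, the paralog of Insig1, and both SREBP genes were not called. Insig2 read 560.0, 670.4 and 733 normalized counts in GF-WT, against 476, 484 and 427 in CONV-WT and 381, 489 and 523 in COLONIZED-WT, and 592, 906 and 598 in GF-Ern2-/-, 542, 626 and 602 in COLONIZED-Ern2-/- and 722, 624 and 665 in CONV-Ern2-/-. Both WT groups with microbes lay below GF-WT (log2 fold change -0.51 in CONV-WT and -0.49 in COLONIZED-WT, adjusted p = 0.0365 and 0.0311), and the Ern2-/- groups overlapped. Srebf1, which encodes the SREBP forms that favour fatty acid genes, read 2656, 2984 and 2291 normalized counts in GF-WT, against 2100.1, 1687 and 617 in CONV-WT and 2317, 2501 and 2298 in COLONIZED-WT, and 2950.0, 2529 and 1992 in GF-Ern2-/-, 2573, 1881 and 2254 in COLONIZED-Ern2-/- and 1697, 1139.8 and 899.5 in CONV-Ern2-/-. CONV-WT replicate 3 read lowest, and every CONV-Ern2-/- library was below every GF-Ern2-/- library (log2 fold change -1.0, adjusted p = 0.0153).

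Srebf2 encodes the SREBP that favours sterol genes. It read 5440.5, 5288 and 5205 normalized counts in GF-WT, against 5169, 4165 and 1864 in CONV-WT and 4444, 4985 and 4575 in COLONIZED-WT. With the label Ern2-/- it read 5538, 4639.7 and 4269 in GF-Ern2-/-, 5408, 4719 and 4468 in COLONIZED-Ern2-/- and 4839, 2977 and 2739.9 in CONV-Ern2-/-. CONV-WT replicate 3, at 1864, was lowest, and all 3 CONV-WT libraries lay below all GF-WT libraries. The log2 fold change was -0.52 in CONV-WT and -0.46 in CONV-Ern2-/- against germ-free libraries (adjusted p = 0.373 and 0.379). Stard4, which encodes a carrier that moves sterol between membranes, ran from 1871 to 3581 and was called in none of the main DESeq2 fits.

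**Figure D3:**
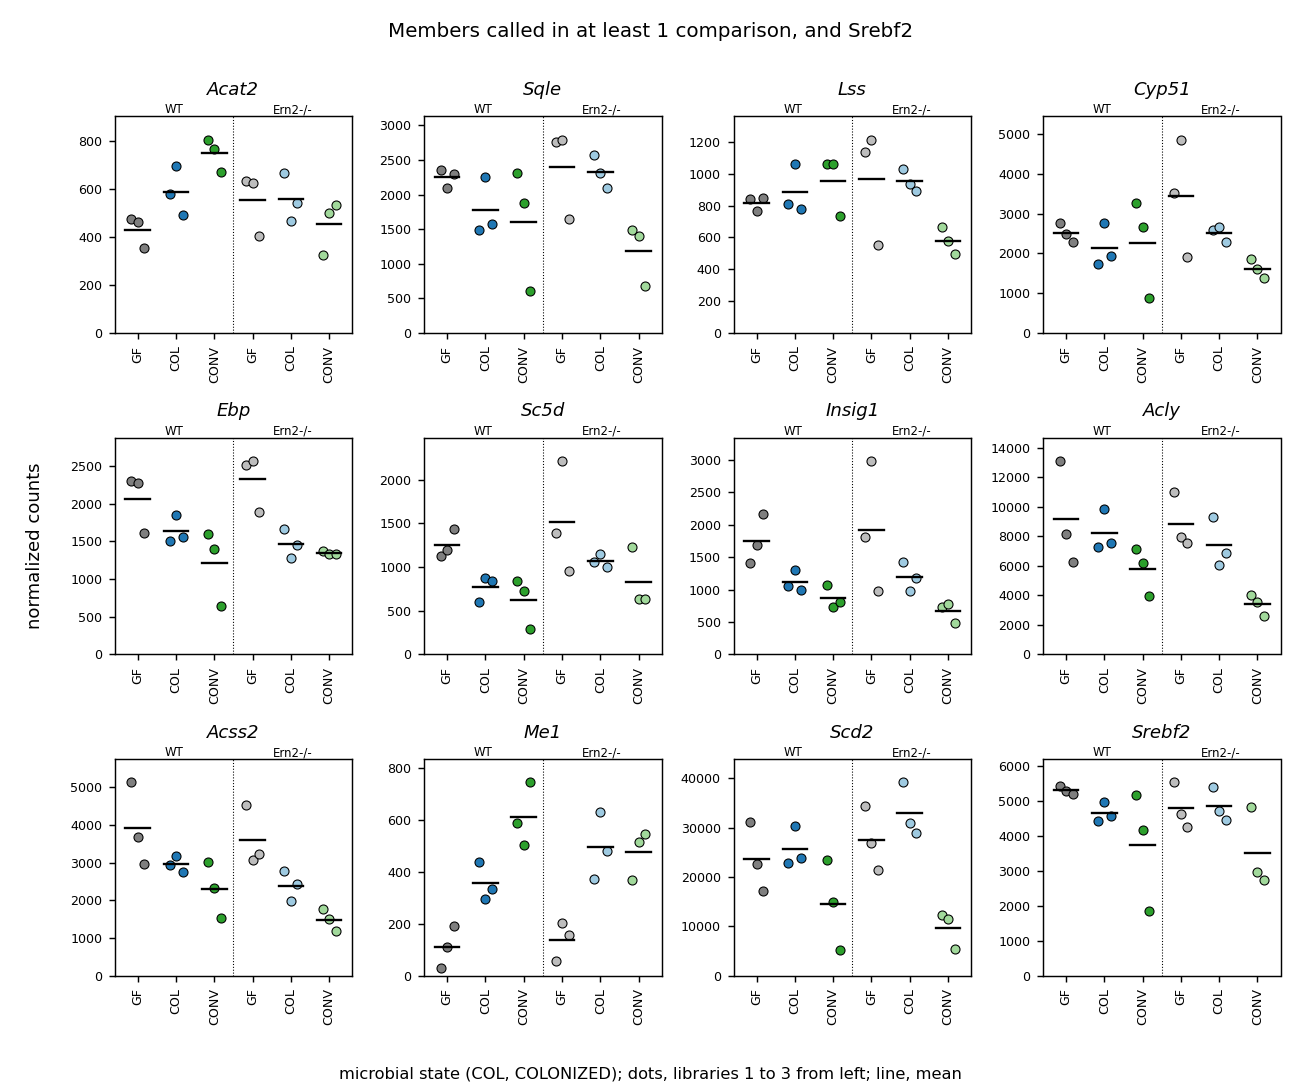
Dots are single libraries in replicate order from left to right, lines are group means, and the y axes give normalized counts from 0. Me1 in GF libraries lies below every library with microbes, CONV-Ern2-/- holds the lowest mean of Acly, Acss2, Scd2, Insig1, Lss, Cyp51 and Sqle, and CONV-WT replicate 3 is the lowest CONV-WT dot of Sqle, Cyp51, Ebp, Sc5d, Scd2 and Srebf2.

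Me1 was the member with the largest rise. Me1 (chr9:86581363-86695914) encodes cytosolic malic enzyme, which supplies NADPH to fatty acid synthesis. It read 30.7, 109 and 189.5 normalized counts in GF-WT, against 587, 502 and 743 in CONV-WT and 436, 296 and 335 in COLONIZED-WT. With the label Ern2-/- it read 55.9, 204 and 155 in GF-Ern2-/-, 371, 630.3 and 480.4 in COLONIZED-Ern2-/- and 369, 513 and 544 in CONV-Ern2-/-. The 6 germ-free libraries had between 30.7 and 204 normalized counts and the 12 with microbes between 296 and 743, with no overlap. Me1 rose in CONV-WT (log2 fold change 2.46 ± 0.58, adjusted p = 0.000399), CONV-Ern2-/- (log2 fold change 1.78 ± 0.43, adjusted p = 0.00152) and COLONIZED-Ern2-/- (log2 fold change 1.83 ± 0.42, adjusted p = 0.000504), and was not called in COLONIZED-WT (log2 fold change 1.70 ± 0.70, adjusted p = 0.0517). The calls were lost without CONV-WT replicate 3 (0.0299) in CONV-WT, without CONV-Ern2-/- replicate 2 (0.027), CONV-Ern2-/- replicate 3 (0.0539) or GF-Ern2-/- replicate 3 (0.0101) in CONV-Ern2-/- and without COLONIZED-Ern2-/- replicate 2 (0.0346) or COLONIZED-Ern2-/- replicate 3 (0.0132) in COLONIZED-Ern2-/-. Without the libraries whose Ern2 was at the WT level, the adjusted p in CONV-Ern2-/- was 0.0613.

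The enzymes that make cytosolic acetyl-CoA went the other way in CONV-Ern2-/-. Acly (chr11:100476352-100528000), which splits citrate, read 13116, 8166 and 6269 normalized counts in GF-WT, against 7132, 6228 and 3954 in CONV-WT and 7281, 9849.8 and 7575 in COLONIZED-WT. In libraries labelled Ern2-/- it read 11010.3, 7964 and 7558 in GF-Ern2-/-, 9292, 6039 and 6846 in COLONIZED-Ern2-/- and 4041, 3533 and 2577 in CONV-Ern2-/-. Every CONV-Ern2-/- library was below every GF-Ern2-/- and COLONIZED-Ern2-/- library, by 1.39 ± 0.27 on the log2 scale against GF-Ern2-/- (adjusted p = 1.63e-05) and 1.12 ± 0.24 against COLONIZED-Ern2-/- (adjusted p = 0.000125). Both calls held in all 6 fits that each left out 1 library. Against GF-Ern2-/- the adjusted p was 0.0172 once both replicates 1 and 3 of that group, with Ern2 at the WT level, were left out.

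Acss2 (chr2:155518043-155562743), which makes acetyl-CoA from acetate, read 5130.1, 3693 and 2958 normalized counts in GF-WT, against 3016, 2342 and 1547 in CONV-WT and 2939, 3189 and 2754 in COLONIZED-WT. It read 4518, 3073 and 3227 in GF-Ern2-/-, 2769, 1982 and 2422 in COLONIZED-Ern2-/- and 1764, 1515 and 1200.3 in CONV-Ern2-/-. COLONIZED-Ern2-/- was below GF-Ern2-/-, and CONV-Ern2-/- below both. The fall in CONV-Ern2-/- against GF-Ern2-/- was called (log2 fold change -1.28 ± 0.26, adjusted p = 7.09e-05) and held in all 6 fits that left out 1 library, but not without both GF-Ern2-/- libraries whose Ern2 was at the WT level (adjusted p = 0.0569). Against COLONIZED-Ern2-/- it was -0.67 (adjusted p = 0.0175). In CONV-WT, Acly and Acss2 differed from GF-WT by -0.68 and -0.78 without a call (adjusted p = 0.194 and 0.0914), and both overlapped with GF-WT.

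Scd2, a stearoyl-CoA desaturase that makes monounsaturated fatty acids, had the largest fall among the 30 genes. Scd2 (chr19:44293676-44306864) read 31099.5, 22682 and 17148 normalized counts in GF-WT, against 23414, 14951 and 5319.5 in CONV-WT and 22808, 30338 and 23809 in COLONIZED-WT. It read 34417, 26781 and 21334 in GF-Ern2-/-, 39143, 31010.4 and 28947 in COLONIZED-Ern2-/- and 12231, 11509 and 5386 in CONV-Ern2-/-. The highest CONV-Ern2-/- library had 12231 and the lowest of the other Ern2-/- libraries 21334. Scd2 fell in CONV-Ern2-/- against COLONIZED-Ern2-/- (log2 fold change -1.76 ± 0.30, adjusted p = 3.71e-07), a call that held in all 6 exclusions of 1 library, and against GF-Ern2-/- (log2 fold change -1.51 ± 0.34, adjusted p = 0.000503), where it was lost without GF-Ern2-/- replicate 1 (0.0262) and without both GF-Ern2-/- libraries whose Ern2 was at the WT level (adjusted p = 0.0264).

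Its paralog Scd1 read 1432, 1325 and 997 normalized counts in GF-WT, against 1018, 866 and 625 in CONV-WT and 1119, 1449 and 1618 in COLONIZED-WT. Scd1 read 2045, 2107 and 844 in GF-Ern2-/-, 1837, 1553 and 1797 in COLONIZED-Ern2-/- and 1724, 838 and 712 in CONV-Ern2-/-, with the groups overlapping, and its fold changes in CONV-Ern2-/- were -0.65 against COLONIZED-Ern2-/- (adjusted p = 0.138) and -0.61 against GF-Ern2-/- (adjusted p = 0.463). How reads that match both paralogs were counted is not given in the sources used here, so the split between Scd1 and Scd2 is uncertain.

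The remaining fatty acid genes, Fasn, Acaca and Elovl6, were called in none of the main DESeq2 fits, and a call of Elovl6 with COLONIZED-Ern2-/- replicate 1 left out is given below. Fasn, which builds palmitate, read 6893, 5491 and 4077 normalized counts in GF-WT, against 7482, 6189.8 and 2925 in CONV-WT and 7461, 6926 and 6762 in COLONIZED-WT. In libraries labelled Ern2-/- Fasn read 5914, 4196 and 5785 in GF-Ern2-/-, 8219.6, 7588 and 6984 in COLONIZED-Ern2-/- and 8276, 5486 and 4655 in CONV-Ern2-/-, and CONV-Ern2-/- overlapped with both other groups. Fasn had log2 fold changes of 0.21 in CONV-Ern2-/- and 0.52 in COLONIZED-Ern2-/- against GF-Ern2-/- (adjusted p = 0.774 and 0.0642). Acaca, which makes malonyl-CoA, ranged from 601 to 1257. Elovl6, which lengthens palmitate, ranged from 901 to 2939 and was highest in CONV-Ern2-/- replicate 1.

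Several values moved together with these differences, and their part in them was not tested. The sum of 15 proliferation genes was 10056 to 14812 normalized counts in GF-WT and 11953 to 15550.2 in GF-Ern2-/-, against 25094 to 28253 in COLONIZED-WT, 28507 to 33036 in COLONIZED-Ern2-/-, 18259.5 to 30052 in CONV-WT and 15948 to 21505 in CONV-Ern2-/-. The number of the 15 called higher than germ free was 15 in COLONIZED-WT, 13 in COLONIZED-Ern2-/-, 9 in CONV-WT and 1 in CONV-Ern2-/-, and none was at 0 in any library. Of all genes, 9.35%, 3.6%, 5.68% and 1.57% were called higher in the same order, and 8.97%, 3.57%, 5.28% and 2.77% lower. Of 9 surface colonocyte genes, 6 were called lower than germ free in CONV-WT (median log2 fold change -2.20), 3 in COLONIZED-WT (-1.63), 6 in COLONIZED-Ern2-/- (-1.83) and 1 in CONV-Ern2-/- (-0.17), with 0 called higher. Against germ free, 2 of 10 goblet genes were called higher and 2 lower in CONV-WT, 5 and 2 in COLONIZED-WT, 3 and 1 in COLONIZED-Ern2-/-, and 0 and 4 in CONV-Ern2-/-. Of the surface colonocyte genes, 8 were called higher in CONV-Ern2-/- than in COLONIZED-Ern2-/- (70544 to 92989.8 against 22941 to 31049.5 normalized counts in sum, with none at 0). In the same comparison 5 of 10 goblet genes were called lower, where 4.86% of all genes were called higher and 3.73% lower. Of the 10 adipocyte markers 4 to 8 were at 0 in each library, and their sum was 227 to 439 normalized counts in CONV-Ern2-/-, 51.3 to 112 in COLONIZED-Ern2-/- and 31.3 to 269.7 in GF-Ern2-/-. Most of it was Cidec, at 221 to 417 in CONV-Ern2-/- against 42.7 to 98.3 in COLONIZED-Ern2-/-, where 1 of the 10 was called higher, while Adipoq, the defining marker, read 0 in every group but CONV-Ern2-/-, where it reached 6.67. Summed mesenchymal markers reached 236 normalized counts in CONV-WT replicate 3 and 142 and 174 in CONV-Ern2-/- replicates 2 and 3, against at most 48.4 in the other libraries.

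The genotype comparisons asked whether WT and Ern2-/- libraries differed under the same microbial state, and no member was called in any of them. In CONV-Ern2-/- vs CONV-WT (3.03% of all genes called), 7 members (23.3%, against 18.0% of all genes) had an unadjusted p under 0.05 with DESeq2 and 7 with edgeR. Between these groups 7 of 9 surface colonocyte genes were called higher and 6 of 10 goblet genes lower in CONV-Ern2-/-, and their part in the values that follow was not tested. Summed goblet markers were 67846 to 86510.0 normalized counts in CONV-Ern2-/- and 92824 to 623576 in CONV-WT, and summed surface colonocyte markers 70544 to 92989.8 and 19463 to 34639.9. Fdps (log2 fold change -0.77, adjusted p = 0.0407), Acat2 (-0.73, 0.0771), Mvk (-0.64, 0.0782) and Lss (-0.71, 0.0749) lay lower in each CONV-Ern2-/- library than in any CONV-WT library. Elovl6 (0.93, 0.0330) and Insig2 (0.54, 0.0543) lay higher in each. Altogether 6 members were wholly lower (20.0% against 11.6% of all genes) and 2 wholly higher (6.67% against 9.75%). Without CONV-WT replicate 3, 4 members were called, all lower in CONV-Ern2-/-, which is 13.3% against 12.4% of all genes (5.22% lower). Chosen after their values were seen, these were Acly (log2 fold change and adjusted p of -0.98, 0.00126), Acss2 (-0.84, 0.00752), Cyp51 (-0.87, 0.00131) and Lss (-0.87, 0.00107). Without CONV-Ern2-/- replicate 2, 1 was called, Fdps (-0.98, 0.00965), or 3.33% against 2.52%.

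In GF-Ern2-/- vs GF-WT (0.035% of all genes called) no member reached an unadjusted p under 0.05 with DESeq2 (1.48% of all genes) and 1 did with edgeR. Without the libraries of WT-level Ern2, and so with 1 GF-Ern2-/- library, Cyp51, also named after its value was seen, was called higher (log2 fold change and adjusted p of 0.97, 0.000717), 3.33% of the members against 4.53% of all genes. The groups overlapped for all 30 genes, while 2.88% of all genes were wholly higher and 3.23% wholly lower. In COLONIZED-Ern2-/- vs COLONIZED-WT (1.37% called) 10 members (33.3%, against 23.2% of all genes) had an unadjusted p under 0.05 with DESeq2 and 8 with edgeR. The log2 fold change was 0.56 ± 0.18 for Elovl6 (adjusted p = 0.0359), 0.30 ± 0.10 for Stard4 (adjusted p = 0.0423) and 0.46 ± 0.17 for Sc5d (adjusted p = 0.0775). The number of members wholly higher in COLONIZED-Ern2-/- was 8 (26.7% against 16.4% of all genes, with 0 wholly lower against 14.0%), and 1, Elovl6 (0.66, 0.00828), was called without COLONIZED-Ern2-/- replicate 1, whose Ern2 was at the WT level (3.33% against 5.26%). Summed goblet markers were 156906 to 304232 normalized counts in COLONIZED-Ern2-/- and 326108 to 441693 in COLONIZED-WT. Summed proliferation markers were 28507 to 33036 and 25094 to 28253, and summed surface colonocyte markers overlapped. Their part in these values was not tested.

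A genotype by microbes term tested for unequal responses under the 2 labels. No member was called for CONV against GF (0.177% of all genes called), with 6 (20.0%, against 9.07% of all genes) at an unadjusted p under 0.05 by DESeq2 and 6 by edgeR, or for COLONIZED against GF (0.028%), with 1 by each (5.76% of all genes by DESeq2). Of 7 members whose fold changes differed in sign, the 4 mevalonate genes Acat2, Fdps, Mvk and Pmvk, with Lss and Acaca, had fold changes above 0 in CONV-WT and below 0 in CONV-Ern2-/- against germ-free libraries, and Elovl6 the reverse. For Acat2 the difference between the responses was -1.10 ± 0.36 on the log2 scale (adjusted p = 0.163) and for Fdps -1.10 ± 0.38 (adjusted p = 0.193). The comparisons of CONV and COLONIZED with GF share the germ-free libraries, so their fold changes are given side by side and not as separate evidence.

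Within groups, the sterol genes varied together from library to library. After group means were taken out of log2(normalized count + 1), the median Pearson correlation over the 15 pairs of mevalonate genes was 0.803 and over the 55 pairs of genes from squalene to cholesterol 0.801, across 18 libraries. All of these pairs were above 0, and the median over all pairs of expressed genes was -0.000513 (lower and upper 5% of pairs beyond -0.667 and 0.689). Between the mevalonate genes and the later genes the median was 0.209 over 66 pairs. Leaving out CONV-WT replicate 3, a choice made after seeing the data, gave 0.849, 0.698 and 0.467 for these 3 medians. Without GF-Ern2-/- replicate 2 as well they were 0.839, 0.649 and 0.373, while the upper 5% of all pairs lay beyond 0.645. Cyp51 and Nsdhl correlated at 0.951, Acat2 and Mvk at 0.965, and Acly and Acss2 at 0.957. Me1 had negative values with 24 of the other 29 genes, as low as -0.829 with Acly. The points share library depth and cell makeup, and no test was made.

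**Figure D4:**
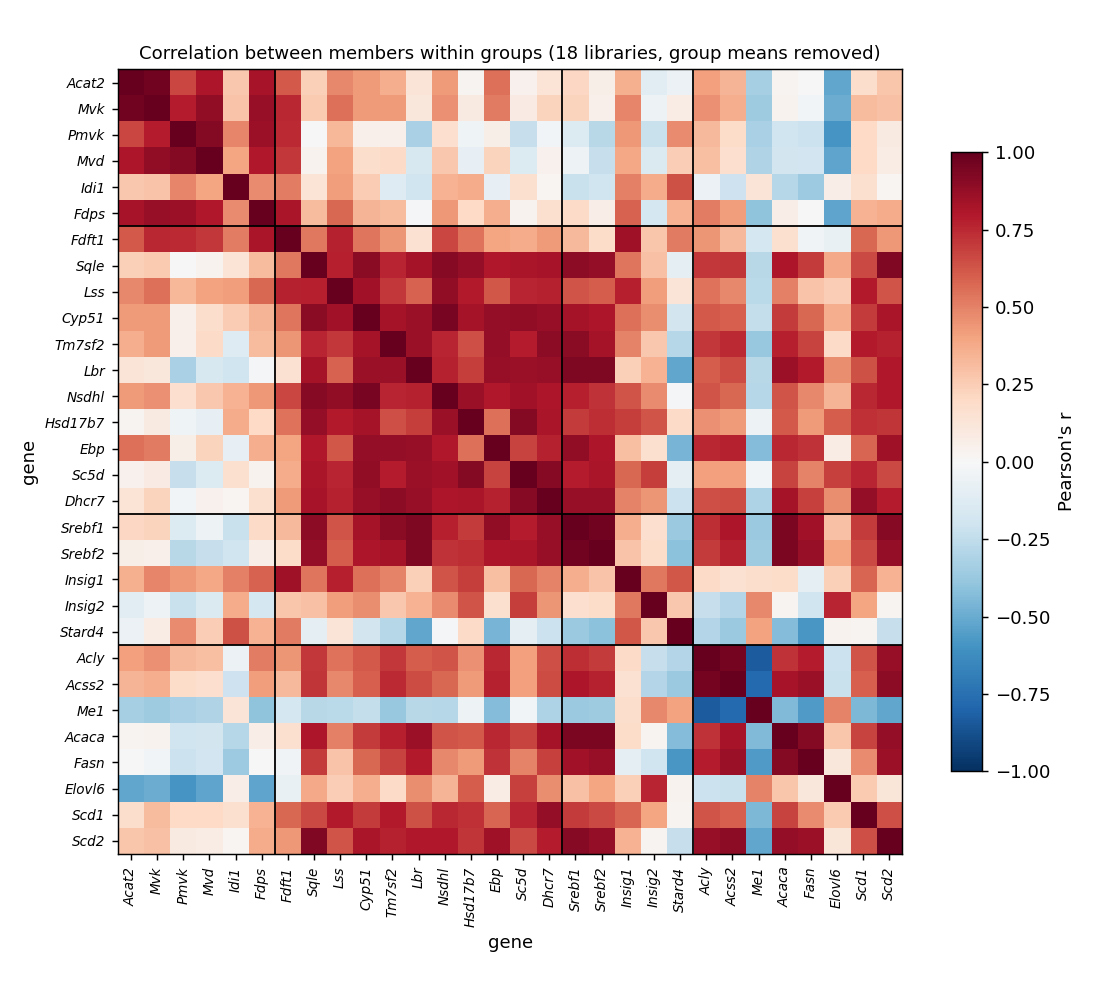
The colour of each cell gives Pearson's r between 2 genes over 18 libraries after group means were taken out (red above 0, blue below). Genes from Sqle to Srebf2 form a red block, Acat2, Mvk, Pmvk, Mvd and Fdps form another, and Me1 is blue with most genes.

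Promoters of the members were read from RefSeq (GRCm38.p6, the build named mm10 in the submitters' processing notes), and 24 of the 30 genes had an entry (not Fdft1, Fdps, Scd1, Scd2, Sqle and Stard4). The letters CCAAT, the binding motif of NF-Y, which works beside SREBP at sterol genes, were sought on both strands from 250 bases before to 50 after each start, together with the sterol regulatory element letters TCACNCCAC. CCAAT was present for 21 of 24 genes (87.5%), against 41.1% of 27025 genes with a promoter entry and 43.0% of the 8323 of these with a mean above 50 normalized counts. TCACNCCAC was present for 0 of 24 genes, so no match overlapped with a CCAAT match, and 1.44% of all genes with an entry. The 100 bases before the start of Cyp51, Lss, Ebp, Sc5d and Acss2, called members with CCAAT in them, and of Acat2, which has none in its window, are printed 5′ to 3′ on the gene's strand, with CCAAT or its reverse complement ATTGG in capitals.
Cyp51, chr5:4104698-4104797, minus strand: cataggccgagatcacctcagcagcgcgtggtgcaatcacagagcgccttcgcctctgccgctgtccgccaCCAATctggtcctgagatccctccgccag
Lss, chr10:76531505-76531604, plus strand: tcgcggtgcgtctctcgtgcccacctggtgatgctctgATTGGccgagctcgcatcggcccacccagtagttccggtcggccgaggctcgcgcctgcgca
Ebp, chrX:8193513-8193612, minus strand: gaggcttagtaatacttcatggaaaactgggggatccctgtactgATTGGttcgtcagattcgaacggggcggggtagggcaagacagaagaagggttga
Sc5d, chr9:42264301-42264400, minus strand: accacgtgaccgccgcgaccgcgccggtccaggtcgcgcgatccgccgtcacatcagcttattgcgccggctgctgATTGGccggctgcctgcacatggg
Acss2, chr2:155517943-155518042, plus strand: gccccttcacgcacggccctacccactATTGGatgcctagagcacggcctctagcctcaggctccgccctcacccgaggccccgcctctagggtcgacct
Acat2, chr17:12960726-12960825, minus strand: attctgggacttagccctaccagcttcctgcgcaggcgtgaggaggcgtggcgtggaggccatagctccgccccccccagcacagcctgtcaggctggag
Insig1, called lower in 3 of the 4 comparisons with germ-free libraries, has its CCAAT letters further out, and its 250 bases before the start are shown for that reason.
Insig1, chr5:28071162-28071411, plus strand: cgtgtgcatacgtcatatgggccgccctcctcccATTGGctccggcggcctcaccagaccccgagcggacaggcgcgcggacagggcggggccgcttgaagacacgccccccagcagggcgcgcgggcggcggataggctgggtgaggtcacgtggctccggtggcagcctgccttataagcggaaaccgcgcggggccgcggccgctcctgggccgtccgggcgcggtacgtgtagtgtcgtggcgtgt
Counted from the start, the capitals begin at base -29 in Cyp51, -62 in Lss, -55 (and, outside the printed bases, -170) in Ebp, -24 in Sc5d and -73 in Acss2, against -216 in Insig1. Starts are those of the promoter entries, and for Lss the gene span given above begins 40 bases before that start, so that the last 40 printed bases lie within the span. The bases just after the start were found in a GENCODE transcript for the other printed genes, but not for Lss and Sc5d. The CCAAT matches are descriptions of letters and not of bound sites. Exons of Cyp51, Acss2, Fdft1 and Srebf1 overlap with those of Akap9, Gss, Ctsb and Rai1 on the opposite strand and exons of Tm7sf2 with Vps51 on the same strand, and since the strand setting of the counting is not given in the sources used here, these 5 members may hold reads of their neighbours.

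Lists of 42 further genes were written from textbook knowledge: 13 other sterol enzymes, uptake and SREBP-processing genes, 18 other fatty acid enzymes and regulators, and 11 genes of LXR, efflux and sterol storage. In CONV-WT vs GF-WT, where 11.0% of all genes were called, 3 of the 13 (23.1%), 4 of the 16 of the second list that were tested (25%) and 4 of the 11 (36.4%) were called. In COLONIZED-WT vs GF-WT (18.3% of all genes) the calls were 2, 7 and 5 (15.4%, 43.8% and 45.5%), the first of these below the share of all genes. They were 3, 4 and 3 in CONV-Ern2-/- vs GF-Ern2-/- (of all genes 4.34%), or 23.1%, 25% and 27.3% of each list, and in COLONIZED-Ern2-/- vs GF-Ern2-/- (7.17%) 2, 5 and 1 (15.4%, 31.3% and 9.09%). All calls of the first and the last list were lower, and those of the fatty acid list were 2, 5, 1 and 4 higher and 2, 2, 3 and 1 lower in the same order.

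Npc1l1, which encodes the intestinal cholesterol importer, read 15.4, 37.1 and 336 normalized counts in GF-WT, against 4.72, 2.96 and 14.6 in CONV-WT and 9.98, 5.88 and 3.97 in COLONIZED-WT. In libraries labelled Ern2-/- it read 21.6, 396 and 148 in GF-Ern2-/-, 12.1, 10.8 and 10.0 in COLONIZED-Ern2-/- and 15.7, 4.44 and 2.76 in CONV-Ern2-/-. All germ-free libraries of a label lay above all libraries with microbes of that label. Npc1l1 was called lower in all 4 comparisons, with a log2 fold change of -4.19 ± 1.09 in CONV-WT (adjusted p = 0.00182) and -4.11 ± 0.75 in COLONIZED-Ern2-/- (adjusted p = 3.10e-06), and the calls held in 2 to 4 of 6 fits that left out 1 library. Without GF-WT replicate 3, the highest library, the log2 fold change was -1.92 in CONV-WT (adjusted p = 0.203) and -1.97 in COLONIZED-WT (adjusted p = 0.0309), and without GF-Ern2-/- replicate 2 it was -3.35 in CONV-Ern2-/- and -2.93 in COLONIZED-Ern2-/-.

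Fads3, a member of the fatty acid desaturase family, read 125, 102 and 101 normalized counts in GF-WT, against 547, 572 and 263 in CONV-WT and 688, 515 and 745 in COLONIZED-WT. With the label Ern2-/- it read 129, 107 and 89.6 in GF-Ern2-/-, 579, 650.1 and 625 in COLONIZED-Ern2-/- and 710.1, 264 and 477 in CONV-Ern2-/-. Germ-free libraries did not exceed 129 and libraries with microbes did not fall below 263. The rise was 2.07 in CONV-WT, 2.58 in COLONIZED-WT, 2.15 in CONV-Ern2-/- and 2.50 in COLONIZED-Ern2-/- on the log2 scale, and each call held in all 6 fits that left out 1 library. Gpam, which starts triglyceride synthesis, was lower in all 4 comparisons, from -1.12 (COLONIZED-WT) to -1.97 (CONV-Ern2-/-).

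The sterol exporter genes Abca1, Abcg5 and Abcg8 were called lower than germ free in CONV-WT, COLONIZED-WT and CONV-Ern2-/-, and in COLONIZED-Ern2-/- none of them was called. Abcg5 and Abcg8, which together pump sterols into the lumen, differed by -2.58 and -2.15 in CONV-WT (adjusted p = 1.39e-07 and 0.000305) and by -1.83 and -2.16 in CONV-Ern2-/- (adjusted p = 0.00297 and 0.00258). Abca1, the exporter to apolipoprotein A1, fell by 1.33 ± 0.21 in COLONIZED-WT (adjusted p = 1.80e-08). Nr1h3, which encodes the sterol sensor LXRα, fell by 0.82 ± 0.18 in COLONIZED-WT and 1.23 ± 0.24 in COLONIZED-Ern2-/- (adjusted p = 5.12e-05 and 2.41e-05). Mylip, which encodes the ligase that degrades the LDL receptor, and Lipa, the lysosomal acid lipase, were lower in CONV-WT (log2 fold change -1.08 and -1.64). Leaving out 1 library kept the calls of Abcg5, Abcg8, Mylip and Lipa in CONV-WT in 6, 3, 2 and 6 of 6 fits, and those of Abcg5 and Abcg8 in CONV-Ern2-/- in 1 and 3.

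Of the other genes of these pathways tested against COLONIZED-Ern2-/-, CONV-Ern2-/- libraries had 1 of 13 sterol genes (7.69%), 3 of 16 fatty acid genes (18.8%) and 3 of 11 LXR and efflux genes (27.3%) called, against 8.59% of all genes. Msmo1, a sterol demethylation enzyme, differed by -1.40 from GF-Ern2-/- and -0.80 from COLONIZED-Ern2-/- (adjusted p = 0.00211 and 0.00287). Fads2, a desaturase of polyunsaturated fatty acids, had normalized counts of 7948, 4292 and 4910.1 in GF-Ern2-/-, 4474, 2708 and 2715 in COLONIZED-Ern2-/- and 1509, 1393 and 800.2 in CONV-Ern2-/-. It fell by 2.22 against GF-Ern2-/- and 1.41 against COLONIZED-Ern2-/-, calls that held in all fits that left out 1 library. Npc2, a carrier of lysosomal cholesterol, was lower than in GF-Ern2-/- (-1.0, adjusted p = 0.000582). Elovl5 and Elovl7, fatty acid elongases, were lower than in COLONIZED-Ern2-/- (-1.17 and -0.60), as was Abcg1, a sterol exporter gene (-2.18), and Osbpl3, an oxysterol-binding protein gene, was higher (1.09). Against COLONIZED-Ern2-/-, the calls of Msmo1, Elovl5, Elovl7, Abcg1 and Osbpl3 held in 3, 6, 1, 1 and 4 of 6 fits that left out 1 library.

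Lipa and the mitochondrial fatty acid synthesis gene Oxsm were the 2 genes of these lists called between CONV-Ern2-/- and CONV-WT, both higher in CONV-Ern2-/- (log2 fold change 2.13 ± 0.31 and 0.68 ± 0.18). They were 1 of 12 sterol genes and 1 of 16 fatty acid genes tested, with 0 of 11 LXR and efflux genes called, against 3.03% of all genes. Lipa read 190.5, 191 and 223 in CONV-WT and 1187, 649 and 786 in CONV-Ern2-/-, and its call held in all 6 exclusions, whereas that of Oxsm held in 1. In the colonized groups Fads1, another desaturase, rose in COLONIZED-WT (1.19), and Acacb, the acetyl-CoA carboxylase of mitochondria, and Elovl5 rose in COLONIZED-Ern2-/- (1.52 and 0.82). Of all these lists edgeR called Fads3, Fads1 and Abca1 in COLONIZED-WT (adjusted p = 0.00204, 0.00759 and 0.00708) and Fads3 in COLONIZED-Ern2-/- (0.00477).

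**Figure D5:**
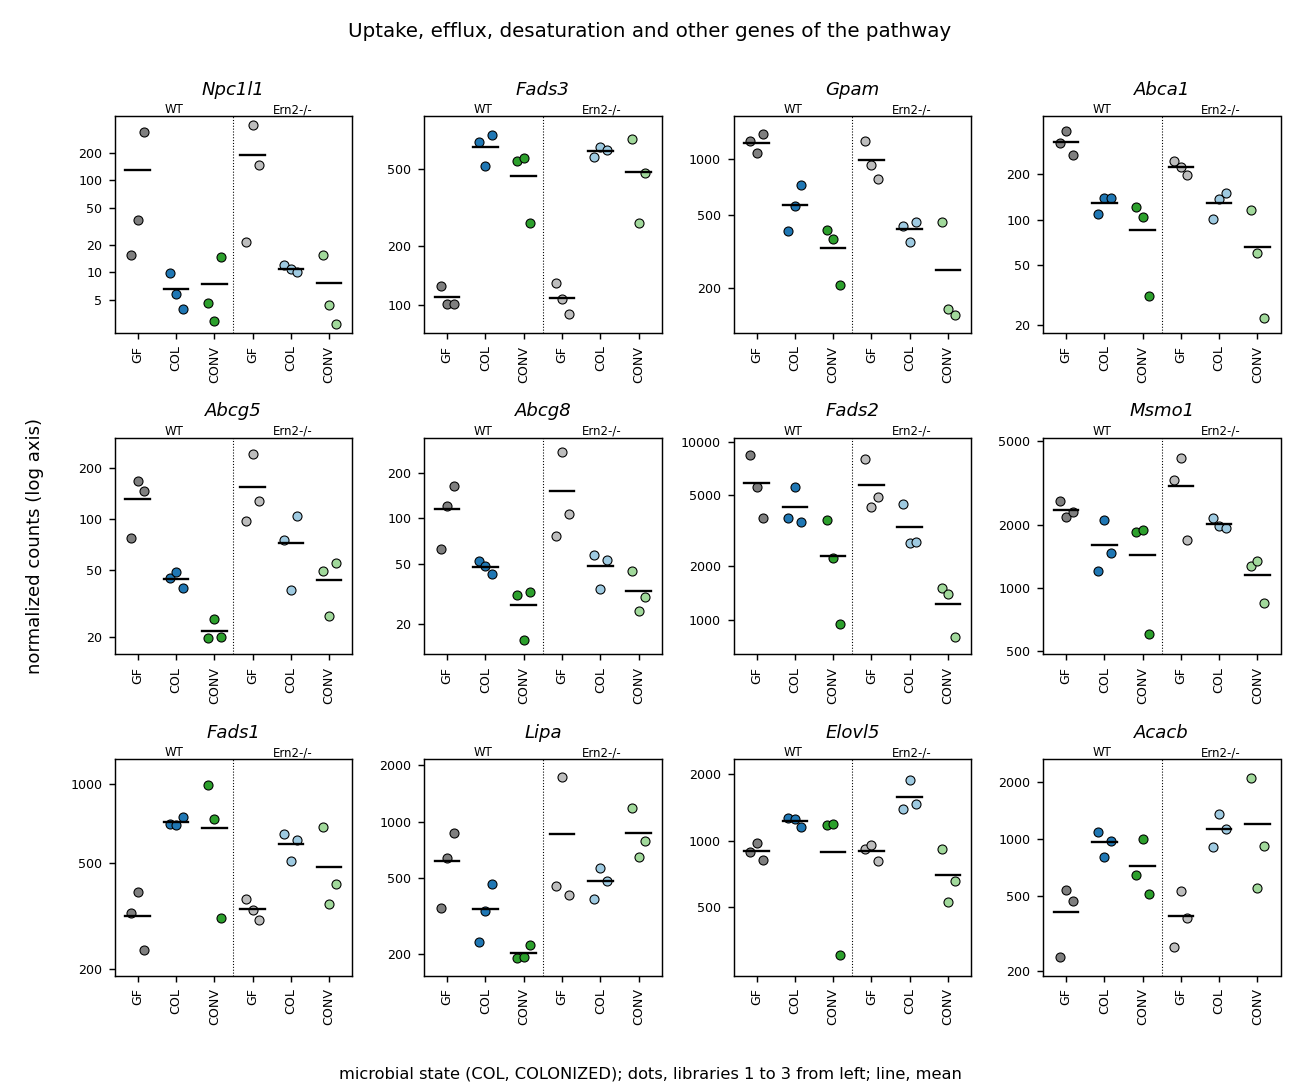
Dots are single libraries in replicate order, lines are group means, and the y axes give normalized counts on a log scale. Npc1l1, Gpam and Abca1 are highest and Fads3 lowest in germ-free libraries of both labels, and Fads2 and Msmo1 have their lowest means in CONV-Ern2-/-.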

How the data were processed

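Colon crypt epithelium was sequenced from 75-cycle single-end stranded mRNA libraries. The authors aligned reads with STAR within the VIPER pipeline and deposited raw counts per gene symbol (24047 symbols, 18217 with a count), and per the labels the build was mm10. Tool versions, the annotation and the strand setting are not given in the sources used here. The column number in each label tied a sample to its column.

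From these counts, DESeq2 1.42.0 (R 4.3.3, Wald test) compared groups on the 6 libraries of each comparison, and on 12 for each interaction. The threshold was an adjusted p (Benjamini-Hochberg, over all genes tested) under 0.01. The edgeR 4.0.16 quasi-likelihood test was the chief alternative, since the study's own analysis used DESeq2. Other alternatives were TMM scaling, a minimum of 10 counts in 3 libraries, no independent filtering, 1 fit of all 18 libraries, a replicate block, sex as a covariate, and libraries left out. The fitting was tested on simulated counts. Normalized counts are counts divided by the size factors of all 18 libraries. Totals of 5865619 to 23154481 counts set the precision of low genes.

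Values in every library are given for the called members and for Srebf1, Srebf2, Insig2, Scd1 and Fasn. Of the other pathway genes, at most 6 called genes with the lowest p in each comparison are named, and 1 gene of these pathways is not reported here. The members and lists were chosen with earlier results of these data known.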

Additional observations from a re-analysis of the deposited data

Results flagged for a closer look

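Genes are given here whose libraries all lay above the mean of their germ-free group under the WT label and all below it under the Ern2-/- label. That mean includes GF-Ern2-/- replicates 1 and 3, whose Ern2 was at the WT level, and single libraries may overlap. For Acat2, GF-Ern2-/- replicate 3 (403) lay below CONV-Ern2-/- replicates 2 and 3 (502 and 535). In CONV against GF the response in Ern2-/- minus that in WT was -1.10 for Acat2 (log2 fold change 0.79 in WT and -0.30 in Ern2-/-), -0.92 for Mvk (0.34 and -0.57), -0.87 for Pmvk (0.54 and -0.33) and -1.10 for Fdps (0.63 and -0.47). In COLONIZED against GF it was -0.60 for Pmvk (0.36 and -0.25). The interaction term tested these differences, and none passed (DESeq2 adjusted p = 0.163, 0.365, 0.194, 0.193 and 0.844). In CONV against GF, Lss, Acaca and Elovl6 also had fold changes of opposite sign (for Lss 0.21 and -0.74, a difference of -0.96 with an adjusted p of 0.404), but not in every library.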

How the results depend on the processing

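Over the 18 pairs of member and comparison called, 247 alternative fits kept the direction in all and the call in 152, with 95 below the threshold. The calls held in every fit that left out 1 library for 4 pairs.

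The share of all genes called in the same fit stands in parentheses. With edgeR the members called were 0 in all 4 comparisons with germ-free libraries and 0 in CONV-Ern2-/- vs COLONIZED-Ern2-/-. One fit of all 18 libraries called 1 in CONV-Ern2-/- vs CONV-WT (4.97%), 1 in COLONIZED-WT vs GF-WT (8.98%) and 2 in CONV-Ern2-/- vs COLONIZED-Ern2-/- (3.32%). Sex as a covariate left 0 (1.92%) and 2 (4.76%) in the latter comparisons, and raised CONV-Ern2-/- vs GF-Ern2-/- from 6 to 9 (4.01%), with Cyp51, Lss and Nsdhl added. In COLONIZED-WT vs GF-WT the group term of the sex fit rests on COLONIZED-WT replicate 2. Without the libraries of WT-level Ern2 there was 1 in GF-Ern2-/- vs GF-WT (4.53%), 1 in COLONIZED-Ern2-/- vs COLONIZED-WT (5.26%), 2 in CONV-Ern2-/- vs GF-Ern2-/- (3.18%), 6 in COLONIZED-Ern2-/- vs GF-Ern2-/- (10.5%) and 2 in CONV-Ern2-/- vs COLONIZED-Ern2-/- (3.29%), and GF-Ern2-/- then held 1 library, assumed to vary like the group it is compared with. At an adjusted p under 0.05 there were 2 in CONV (5.67%) and 2 in COLONIZED (5.30%) between genotypes, 6 in CONV-WT (18.8%), 7 in COLONIZED-WT (29.0%) and 3 in COLONIZED-Ern2-/- (12.8%) against germ free. The cause of these changes was not tested.

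Leaving out 1 library gave 0 to 4 in CONV-Ern2-/- vs CONV-WT (4 without CONV-WT replicate 3; 0.989% to 12.4% of all genes), 0 to 1 in COLONIZED-Ern2-/- vs COLONIZED-WT (0.617% to 5.26%), 1 to 3 in CONV-WT (4.31% to 20.8%), 0 to 6 in COLONIZED-WT (0 without COLONIZED-WT replicate 1 and 6 without GF-WT replicate 1; 9.22% to 20.2%), 3 to 8 in CONV-Ern2-/- (8 without GF-Ern2-/- replicate 3; 1.90% to 7.14%) and 0 to 3 in COLONIZED-Ern2-/- (3.42% to 10.4%) against germ free. In CONV-Ern2-/- vs COLONIZED-Ern2-/- it gave 2 to 15 (15 without CONV-Ern2-/- replicate 1; 3.29% to 18.4%). The share of all genes called moved in the same fits. The labels do not say that replicate numbers pair the samples. Correlations between deviations of same-numbered libraries ran from -0.28 to 0.633, which cannot decide whether samples were paired. The replicate block gave 4 calls in COLONIZED-WT (16.3%) and 2 in COLONIZED-Ern2-/- (7.20%) against germ free. No limit of detection was computed for 3 libraries a group or for the smallest library (5865619 counts).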
